A study of Mus musculus with 6 samples.

Results

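Elovl3 encodes a fatty acid elongase, and it was examined as 1 gene of the 3201 listed with a value in every liver (ENSMUSG00000038754, the row named Elovl3). It was picked with its values in these livers already known, so its level is described here and no test is made of it. RNA-seq was performed on livers of male mice on a C57BL/6 background, all of which underwent 70% partial warm hepatic ischemia-reperfusion (I/R), with 1 h of ischemia and 6 h of reperfusion. The control livers (n = 3) carry IR as their genotype label. They are from Fgf18 f/f mice, a genotype taken from the paper, with loxP sites flanking Fgf18 and no Cre. The knockout livers (n = 3), labelled FGF18 KNOCKOUT, are from Fgf18△HSC mice, in which Cre driven by the GFAP promoter acts on the same floxed gene in hepatic stellate cells (HSCs), pericytes of the sinusoid that store vitamin A. Fgf18 itself was not analysed here, so no level of the targeted gene stands beside the labels, and livers without I/R were not analysed here. The age of the mice, the lobe that was sequenced and the hour at which livers were taken are not given in the sources used here.

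Elongases sit in the endoplasmic reticulum membrane and catalyse the first, condensing step of each round in which carbon is added to a long-chain fatty acyl-CoA. ELOVL3 is known to lengthen saturated and monounsaturated acyl chains, and its gene was first described as a cold-induced gene of brown fat. In mouse liver Elovl3 is known for a day-night rhythm, for higher levels in males than in females and for responses to steroid hormones, and the clock repressor NR1D1 (REV-ERBα) is known to hold it down.

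Elovl3 lies on the forward strand at chr19:46131897-46135694 of the mouse genome build GRCm38. The annotation holds 2 protein-coding transcripts of 4 exons each, of 248 and 271 codons. The stretch of coding sequence that marks the family is the histidine box, whose histidines are needed for catalysis. It is shown for Elovl3 and for Elovl7, the other listed elongase, because it is the feature that the family shares, and the capitals mark the histidine codons.
Elovl3: tttgtcCACtggtacCACCACagcaca
Elovl7: ttccttCATgtcttcCATCATacgatc
The Elovl3 stretch is at chr19:46134416-46134442 on the forward strand and is the same in both transcripts. The Elovl7 stretch is at chr13:108274325-108274351 on the forward strand. Both are read 5′ to 3′ from the annotated transcript sequences and placed on GRCm38, and 13 of their 27 bases are identical.

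Levels are given as TPM (a read level corrected for gene length and set to a common library total), a unit that was assumed. In control livers Elovl3 stood at 6.08, 4.597 and 9.18 TPM in livers 1, 2 and 3. In knockout livers it stood at 197.5, 204 and 199.7 TPM. The lowest knockout liver was 21.5 times the highest control liver, so the groups did not overlap. Such separation was the rule in this table, where the groups of 96.3% of genes did not overlap. The means were 6.62 ± 2.34 TPM in control livers and 200.5 ± 3.44 TPM in knockout livers (SD, n = 3 each), a ratio of means of 30.3 and a difference of 4.96 in mean log2(TPM + 0.1).

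**Figure D1:**
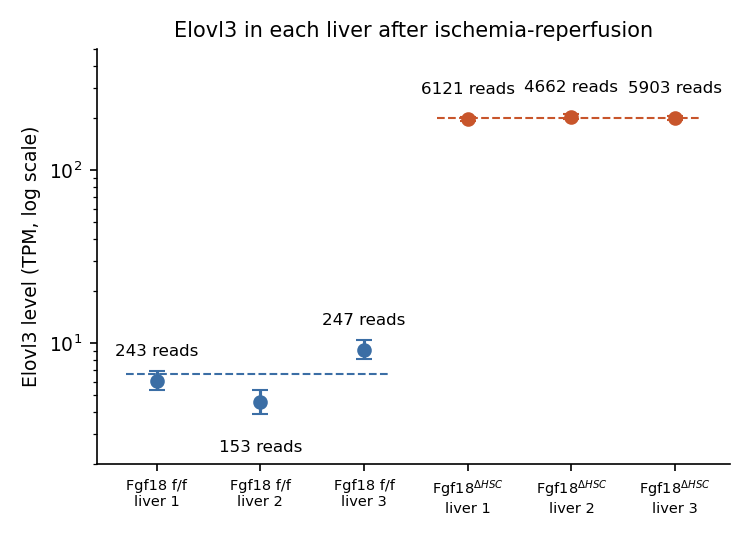
Elovl3 level (TPM, log axis) in each of the 3 Fgf18 f/f livers and the 3 Fgf18△HSC livers after I/R. Points are livers, bars are 95% Poisson intervals of the counting error, dashed lines are group means and the labels give the recovered reads. The Fgf18△HSC livers sit between 197.5 and 204 TPM, all above the highest Fgf18 f/f liver at 9.18 TPM.

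The plot of Elovl3 by liver also gives the reads behind each level, which were recovered from the values. In control livers the gene held 243, 153 and 247 reads, and in knockout livers 6121, 4662 and 5903 reads. Counting error alone puts livers 1, 2 and 3 of the control group at 5.34 to 6.89, 3.90 to 5.39 and 8.07 to 10.4 TPM (95% Poisson intervals). The interval of liver 3 lies above those of livers 1 and 2, whose intervals overlap slightly. Among knockout livers all 3 intervals overlap, from 193 to 203 TPM in liver 1, from 198 to 210.2 TPM in liver 2 and from 195 to 205 TPM in liver 3. The order of livers was therefore not resolved by depth within the knockout group. Corrected for depth, the pooled reads gave a ratio of 31.2 between the groups (95% interval 28.8 to 33.8, counting error only).

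The whole reads came out with an exon length of 1494 bases, where the joined exons of both annotated transcripts measure 1975 bases. The TPM level of Elovl3 thus depends on the gene model that the authors used, by a factor of up to 1.32, and the ratio between the groups does not.

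The values of Elovl3, as deposited, lay closer together in the knockout group. In control livers the highest value was 1.997 times the lowest, with a coefficient of variation (CV, SD over mean) of 35.3%. In knockout livers the highest was 1.03 times the lowest, with a CV of 1.71%. Counting error alone would give a CV of 6.36% to 8.08% in single control livers and of 1.28% to 1.46% in single knockout livers, so on the deposited scale the spread of the knockout group was close to that of counting. In all, 359 listed genes, Elovl3 included, had an Fgf18 f/f mean within 2-fold of that of Elovl3. Of these 344 had a smaller CV there, and the median of the 359 was 11.0%. Of the 61 genes within 2-fold of it in knockout livers, Elovl3 included, 0 had a smaller CV, and the median was 13.05%. The authors kept genes by a comparison of these same livers, which can favour a small spread within groups, so these ranks are descriptions. On rescaled levels, an alternative chosen after seeing the data and defined with the calls further on, the CV was 28.0% in control livers and 10.5% in knockout livers, and 6 of 60 genes near Elovl3 in level had a smaller CV in the latter, so the tightness of the knockout group depends on the scaling. With 3 livers a CV is itself imprecise, and the difference in spread was not tested.

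**Figure D2:**
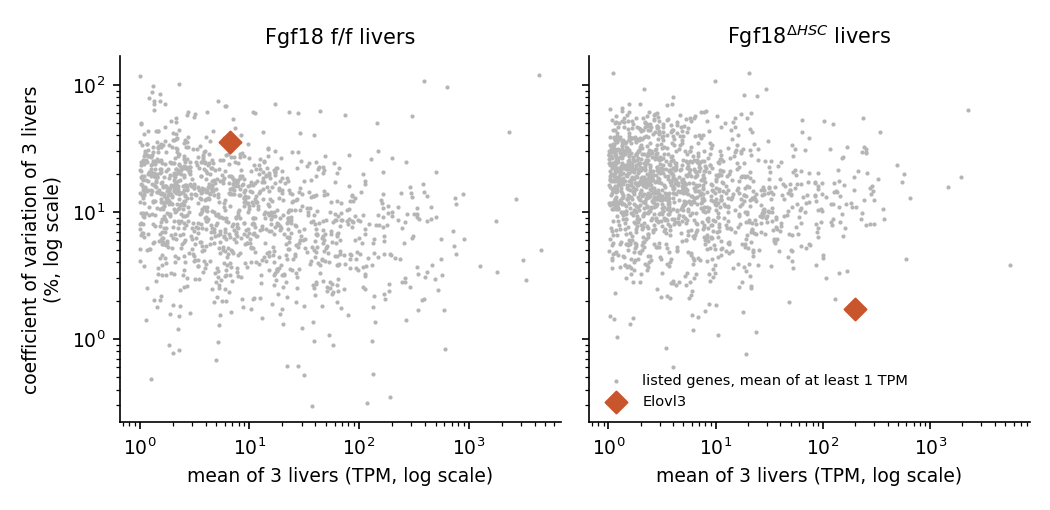
CV over 3 livers (%, log axis) against mean level (TPM, log axis) for listed genes whose mean reached 1 TPM, in Fgf18 f/f livers on the left and Fgf18△HSC livers on the right. Grey points are genes and the diamond is Elovl3, which lies at 35.3% in the left panel and at 1.71% in the right panel.

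The plot of spread against level shows Elovl3 near the upper edge of the cloud in control livers and below the cloud at its level in knockout livers. Among the listed genes Elovl3 ranked 639, 720 and 525 by level in the 3 control livers and 34, 33 and 32 in the 3 knockout livers. It took 0.00644% to 0.0116% of the summed TPM of the listed genes in the former and 0.5004% to 0.514% in the latter. That sum was itself lower in knockout livers, at 3.89% to 3.99% of the library total against 7.14% to 7.93% in control livers. The shares thus differ more between the groups than the level of Elovl3 does. By difference in log2(TPM + 0.1) it stood second of 3201, behind the predicted gene Gm8696 with 5.36. By gain in TPM it stood sixth, at 193.9 TPM, behind CT010467.1, Gm10800, Bhmt, Hbb-bs and Gm15622. These ranks are descriptions of a table from which genes with smaller differences had been removed by the authors.

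**Figure D3:**
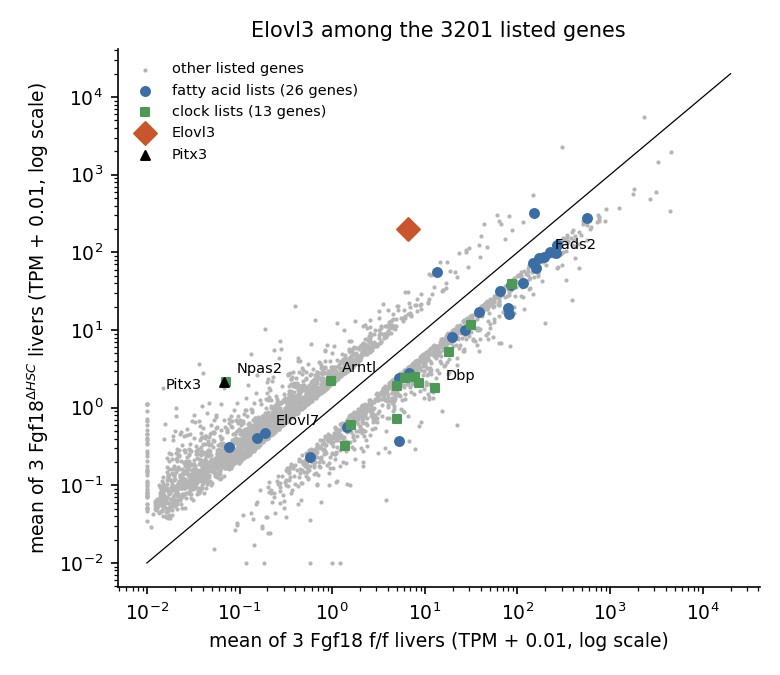
Mean level in 3 Fgf18△HSC livers against mean level in 3 Fgf18 f/f livers (TPM + 0.01, log axes) for the 3201 listed genes, with the line of equal levels. Elovl3 (diamond, 6.62 and 200.5 TPM), genes of the fatty acid lists (circles), clock genes (squares) and Pitx3 (triangle) are marked, and the empty band along the line shows that genes with small differences are not listed.

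The calls used for other genes come from limma on log2(TPM + 0.1), with a Benjamini-Hochberg adjusted p under 0.05 over all 3201 genes and an absolute log2 difference above 1. The authors had listed genes by their own comparison of these same livers, and 71.7% of all genes were called, 41.6% as higher and 30.0% as lower in knockout livers, and the median log2 difference of all genes was 0.88. Counts of called members below are to be read against these shares. Since genes were kept by a comparison of these same livers, the adjusted p-values below are descriptive. They are no independent test and do not hold a false discovery rate. The 1333 higher and 961 lower calls became 281 and 1115 when livers were rescaled by their median ratio over the listed genes, which lowered the differences by a median of 0.88, and 266 and 566 with a pseudocount of 1. Of the listed genes 2083 were higher in knockout livers, so this rescaling removes the list's own median difference and is not a neutral normalization. Calls that ended on rescaling are to be read with this limit. On the rescaled levels Elovl3 stood at 10.7, 7.96 and 14.1 TPM in control livers and at 163, 182 and 147 TPM in knockout livers, a log2 difference of 3.93. In log2 values across genes, livers of the same group correlated at 0.971 to 0.993 and livers of different groups at 0.870 to 0.899, and no liver stood apart from its own group.

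The nearest listed gene to Elovl3 was also higher in knockout livers. Pitx3, which encodes a homeobox transcription factor known from dopamine neurons and the lens, lies on the reverse strand at chr19:46135685-46148326, and its 3′ end overlaps the 3′ end of Elovl3 by 10 bases. Its level was 0.0490, 0.0882 and 0.0364 TPM in control livers and 2.40, 2.02 and 1.92 TPM in knockout livers, without overlap of the groups. These levels rest on 2, 3 and 1 reads and on 76, 47 and 58 reads. Pitx3 rose (limma adjusted p = 1.28e-05), by 36.3-fold in depth-corrected pooled reads with a 95% counting interval of 16.3 to 100.1. For every 100 Elovl3 reads there were 0.933 Pitx3 reads in the pooled control livers (95% interval 0.343 to 2.02) and 1.08 in the pooled knockout livers (0.933 to 1.25). The intervals overlap, so a change in this ratio was not detectable at this depth. The library kit marks strand, but the strand setting of the counting is not given in the sources used here. Reads of overlapping genes on opposite strands cannot be told apart without strand, and whether Pitx3 reads derive from Elovl3 transcripts was not tested.

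Within 500000 bases on either side of Elovl3 the annotation holds 35 other genes, 24 of them protein coding, and 3 of the 35 were listed. Apart from Pitx3, these were Psd, an exchange factor for the small GTPase ARF6, and Sufu, an inhibitor of Hedgehog signaling. Psd fell from 1.37 ± 0.106 to 0.534 ± 0.211 TPM (SD, n = 3; limma adjusted p = 0.00271), at a distance of 176393 bases from Elovl3. Its call ended with a pseudocount of 1 (log2 difference -0.64) and without knockout liver 2 (-0.98). Sufu rose from 0.299 ± 0.0451 to 0.746 ± 0.0536 TPM (limma adjusted p = 0.00116) at a distance of 261202 bases, a call that ended on rescaling (log2 difference 0.25), with a pseudocount of 1 (0.43) and without control liver 1 (0.99). The listed neighbours thus did not move in 1 direction.

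Of the 7 elongase genes, Elovl3 and Elovl7 were listed. Elovl7, which elongates saturated chains, was at 0.233, 0.123 and 0.180 TPM in control livers and at 0.396, 0.424 and 0.567 TPM in knockout livers. All its levels were far below those of Elovl3, and its groups did not overlap. It rose by 1.02 on the log2 scale (limma adjusted p = 0.00364, standard error 0.24), a call that ended with a pseudocount of 1 (0.31), on rescaling (0.27), without control liver 2 (0.87) and without knockout liver 3 (0.89). No value was read for Elovl1, Elovl2, Elovl4, Elovl5 or Elovl6, since the listed genes do not include them.

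Of the 17 genes for the later steps of the elongation round and for desaturases, only Fads2 was listed. Fads2, the rate-limiting desaturase of polyunsaturated fatty acid synthesis, was at 202, 184 and 193 TPM in control livers and at 91.5, 78.9 and 90.4 TPM in knockout livers. It fell by 1.15 on the log2 scale (limma adjusted p = 5.59e-05, standard error 0.11). In control livers Fads2 was thus far above Elovl3, and in every knockout liver Elovl3 was above Fads2.

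Genes that make fatty acids and their esters, or that regulate this synthesis, mostly fell where they were listed. Of 19 genes 4 were listed, of which 1 was called higher and 3 lower, with a median log2 difference of -1.04. Me1, which supplies NADPH for synthesis, Dgat2, which makes triglyceride, and Lpin1, a phosphatidate phosphatase, fell by 1.36, 1.05 and 1.03 on the log2 scale. Without knockout liver 3, only 2 of the 4 were called, as Dgat2 and Lpin1 then missed the limit of 1, and each missed it without 1 other knockout liver as well (liver 2 for Dgat2, liver 1 for Lpin1). Insig2, which retains the SREBP activator in the endoplasmic reticulum, was at 11.4, 12.1 and 16.5 TPM in control livers and at 55.7, 68.1 and 46.1 TPM in knockout livers. It rose by 2.08 on the log2 scale (limma adjusted p = 5.25e-05, standard error 0.19), against the direction of the other 3.

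Genes that activate or release fatty acids also mostly fell where they were listed. Of 21 acyl-CoA synthetases and thioesterases 9 were listed, 2 called higher and 7 lower, with a median log2 difference of -1.19. Acot3, a peroxisomal thioesterase, fell from 5.298 ± 0.275 to 0.361 ± 0.0913 TPM, and Acsl1 and Slc27a2, which make acyl-CoA, fell by 1.51 and 1.43 on the log2 scale. Slc27a3 rose by 1.32 on the log2 scale from under 0.1 TPM, and its call ended with a pseudocount of 1 (0.29) and on rescaling (0.80).

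Genes of fatty acid oxidation and targets of PPARα mostly moved against Elovl3 where they were listed. Of 36 genes 11 were listed, 1 called higher and 10 lower, with a median log2 difference of -1.17. Cpt1a, which admits fatty acids to mitochondria, fell from 79.6 ± 6.43 to 19.2 ± 0.653 TPM. Pdk4, which limits entry of pyruvate into oxidation, and Acaa1a, a peroxisomal thiolase, fell by 2.39 and 1.41 on the log2 scale. Ppara itself fell from 19.7 to 8.02 TPM (limma adjusted p = 3.05e-05). Plin2, a lipid droplet coat protein outside the 4 largest differences and named after its values were seen, rose from 152 to 323 TPM, a call that ended on rescaling (0.04) and without knockout liver 2 (0.94).

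**Figure D4:**
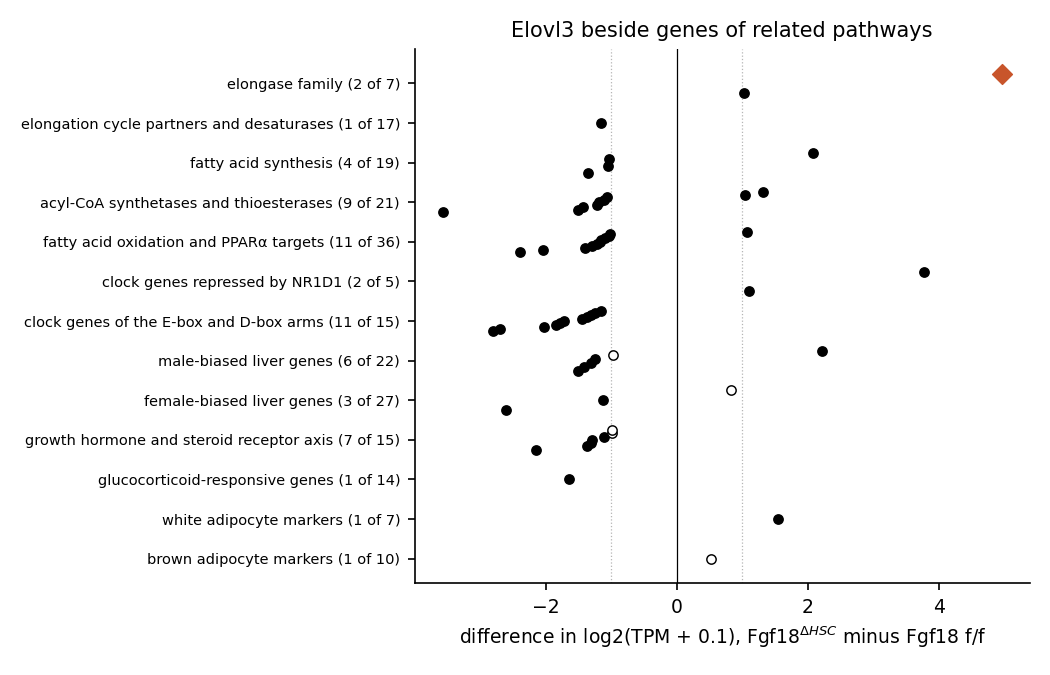
Difference in mean log2(TPM + 0.1), Fgf18△HSC minus Fgf18 f/f, for the listed genes of 13 lists, with the number listed of the number in each list. Filled circles are called genes, open circles are genes not called, dotted lines mark differences of -1 and 1, and the diamond is Elovl3 at 4.96.

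The plot by list sets Elovl3 apart from the other fatty acid genes, which lie mostly left of 0, and beside Npas2 on the right. Genes of the clock fell into opposite directions. Of the 5 genes taken as repressed by NR1D1, Npas2 and Arntl were listed and both rose. Npas2, a partner of BMAL1, was at 0.0780, 0.0375 and 0.0695 TPM in control livers and at 2.75, 1.53 and 2.15 TPM in knockout livers. Its groups were far apart, and it rose by 3.77 on the log2 scale (limma adjusted p = 1.83e-05, standard error 0.26), on 10, 4 and 6 reads against 273, 112 and 204 reads. Arntl, which encodes BMAL1, was at 1.09, 0.811 and 0.982 TPM in control livers and at 2.85, 1.74 and 2.07 TPM in knockout livers. It rose by 1.11 on the log2 scale (limma adjusted p = 0.00170, standard error 0.22), a call that ended with a pseudocount of 1 (0.70), on rescaling (0.14) and without knockout liver 1 (0.92).

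Of 15 clock genes driven through E-box and D-box elements 11 were listed, and all 11 were called lower, with a median log2 difference of -1.72. Dbp and Tef, which bind D-boxes, fell by 2.80 and 2.02 on the log2 scale, Usp2, a deubiquitinase under clock control, by 2.69. Per3, of the period family, fell by 1.83, a call that ended with a pseudocount of 1 (-0.85). Nr1d1 was not among the listed genes, so no value of it was read here. The clock genes thus moved between the groups with Elovl3 or against it. With all 6 livers in 2 groups and no hours of collection, the genotype and any difference in the hour cannot be told apart.

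Sex-biased liver genes were examined because Elovl3 is known as male-biased. Of 22 other male-biased genes 6 were listed, with 1 called higher, 4 lower and a median log2 difference of -1.28. Gstp1, Ugt2b1 and Cyp2d9, which act on xenobiotics and steroids, fell by 1.51, 1.42 and 1.31 on the log2 scale, members of families whose close copies can share reads. Moxd1, a copper-dependent monooxygenase-like protein, was at 0, 0.0140 and 0.0521 TPM in control livers and at 0.151, 1.99 and 0.237 TPM in knockout livers. It rose by 2.22 on the log2 scale (limma adjusted p = 0.0154), by 1.27 without knockout liver 2, and its call ended with a pseudocount of 1 (0.66). Of 27 female-biased genes 3 were listed, with 0 called higher and 2 lower. Cyp2a4, a steroid hydroxylase with close copies, and Fmo2, a flavin monooxygenase, fell by 2.60 and 1.12 on the log2 scale, and Prom1 differed by 0.83 without passing the limit. The call of Fmo2 ended with a pseudocount of 1 (-0.75) and without knockout liver 3 (-0.98). The 6 male-biased and 3 female-biased genes that were listed thus fell for the most part, while Elovl3 was higher. The direction of the unlisted genes of both kinds is not known. None of the 6 sex-linked genes examined was listed, so the sex of the livers was not checked.

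Listed genes of the growth hormone axis, which sets much of the sex bias of liver, mostly fell. Of 15 genes of this axis and of steroid receptors 7 were listed, with 0 called higher and 5 lower and a median log2 difference of -1.29. Socs2, a feedback inhibitor induced by growth hormone, fell by 2.15 on the log2 scale, Esr1, an estrogen receptor (not called with a pseudocount of 1, at -0.84), by 1.37, Igfals, which stabilises circulating IGF1, by 1.31 and Onecut1, a hepatocyte transcription factor, by 1.29. Of 14 glucocorticoid-responsive genes only Pck1, of gluconeogenesis, was listed, and it fell by 1.64 on the log2 scale.

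Markers of adipocytes were read because Elovl3 is abundant in brown fat. Of 10 brown adipocyte markers only Ebf2, a transcription factor, was listed, at 0 to 0.0108 TPM in control livers and 0.0209 to 0.0661 TPM in knockout livers, and it was not called. The defining thermogenic marker Ucp1 was not among the listed genes, so no value of it stands beside Elovl3. Of 7 white adipocyte markers only Fabp4, a fatty acid-binding protein also made by macrophages and endothelium, was listed. It rose from 3.81 to 11.2 TPM (limma adjusted p = 0.000335), a call that ended on rescaling (0.53). The part of adipose tissue in the level of Elovl3 was not tested.

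Markers of other liver cells moved with the groups as well. The hepatocyte marker Cyp2e1, the only listed gene of 10, fell from between 1660 and 1955 TPM to between 461 and 686 TPM. Of 10 HSC markers 7 were listed and 5 called higher, with a summed level of 6.42 to 8.52 TPM in control livers and 17.5 to 25.6 TPM in knockout livers. Of 8 macrophage markers 2 were listed and 1 was called higher (summed level 4.19 to 5.45 against 13.95 to 19.5 TPM). Of 8 neutrophil markers 2 were listed and both were called higher (6.16 to 7.69 against 9.80 to 27.1 TPM). Of 8 sinusoidal endothelial markers 3 were listed and 3 were called higher (11.9 to 14.4 against 26.5 to 38.8 TPM). Of 6 cholangiocyte markers 5 were listed, 2 called higher and 1 lower (28.1 to 30.5 against 50.2 to 76.8 TPM). None of these listed summed levels was at 0. On rescaled levels, an alternative chosen after seeing the data, Cyp2e1 was still called lower, of the HSC markers only Hand2, a transcription factor, was called higher (log2 difference 1.03), and the macrophage, neutrophil, endothelial and cholangiocyte markers called higher above missed the limits of the limma call. The summed endothelial levels were then 20.97 to 22.0 TPM against 23.6 to 28.6 TPM, and the neutrophil and cholangiocyte sums overlapped between the groups. In liver tissue, more cells of a type and more RNA per cell cannot be told apart, and the part of cell makeup in the difference of Elovl3 was not tested.

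The genes most like Elovl3 in pattern were sought among the 1667 listed genes whose mean reached 1 TPM in either group, over all 6 livers. By Pearson r of log2(TPM + 0.1) the 10 closest were 2810403A07Rik, AC123738.2, Twf2, Bcdin3d, Trp53, Polk, Gm12346, Trim39, Nabp1 and Phldb2, with r between 0.998 and 0.999. Their log2 differences, 1.05 to 1.88, were far smaller than that of Elovl3. The livers lie in 2 groups, which sets most of r, and 581 of the 1667 genes (34.9%) had r above 0.9. By distance between profiles, each centred on its own mean, the 5 closest were AC158355.1, Sprr1a, Gm30692, Ighg2c and Gm20005. Their distances ran from 0.708 to 1.48 in log2 units, and 0 genes were named by both measures. Sprr1a, an epithelial cornified envelope protein, was at 0.638 TPM in control livers and 13.6 TPM in knockout livers, on 7, 10 and 15 reads against 212, 181 and 214 reads. Each control liver had 1 read of AC158355.1, and at most 2 reads of Ighg2c and of Gm20005. Pitx3 and Npas2 had r of 0.982 and 0.988 and distances of 1.75 and 1.67, while Insig2 and Arntl lay further off at 3.57 and 4.78. On rescaled levels 1 of the 10 genes named by r was named again.

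**Figure D5:**
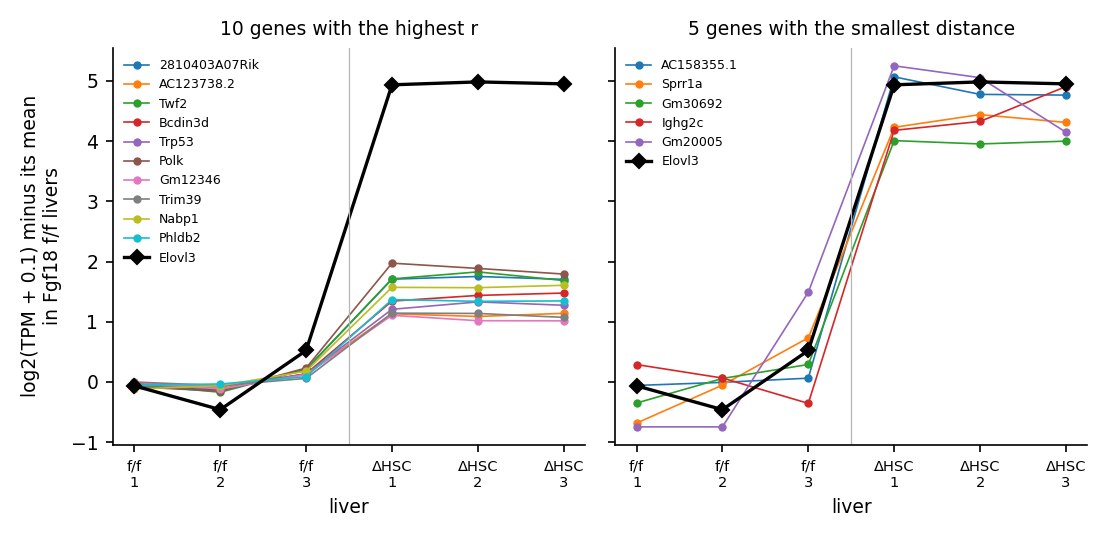
log2(TPM + 0.1) in each of the 6 livers, minus the gene's own mean in Fgf18 f/f livers, for Elovl3 (black diamonds) and the 10 genes with the highest Pearson r on the left and the 5 genes with the smallest centred distance on the right. Genes on the left rise by 1.05 to 1.88 between the groups, and the step of genes on the right depends on the pseudocount, since their control means are 0.0269 to 0.638 TPM.

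The plot of like profiles shows the contrast between both measures of likeness. Genes chosen by r followed the small step up in control liver 3 and the flat knockout group on a smaller scale. The 5 genes chosen by distance had control means of 0.0269 to 0.638 TPM, so the height of their step depends on the pseudocount of 0.1.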

How the data were processed

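The authors prepared stranded mRNA libraries from Trizol RNA, and the submitters' processing notes name cutadapt 2.5, HISAT2 2.1.0 and featureCounts 1.6.3 (GRCm38). The authors deposited a single table with a level for each gene and liver, and its unit is not written. The levels were taken as TPM, computed by the authors before they deposited them. Level times joined exon length gave whole reads, within 0.02 reads, for 92.2% to 92.6% of values under 5000 reads. A length-corrected level scaled by the read total of its liver (FPKM) would pass the same check. TPM was therefore assumed and not established. In the authors' table the log2 fold change, p-value, adjusted p-value and direction columns hold their DESeq2 comparison and were not used. Genes had been kept by that comparison.

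Levels were compared with limma 3.58.1 in R 4.3.3 (lmFit, eBayes with trend) on log2(TPM + 0.1), 3 livers against 3, with no covariate and no filter on low values, and p-values were Benjamini-Hochberg adjusted over 3201 genes. The fit was tested on simulated counts with 86 genes changed by 2 and 114 by 3 on the log2 scale. It recovered 71 and 102 of these, with 7 false calls. Far fewer genes changed there than were called in these filtered data, so the simulation does not vouch for the calls. GENCODE positions on GRCm38 matched 3196 genes, and 2933 genes gave whole reads in all livers. Depth was 0.0374 to 0.0655 TPM per read on 1000 bases. Poisson and Clopper-Pearson intervals were computed with scipy 1.17.1 and cover counting error only.

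Elovl3, the gene lists and the tests were chosen with earlier results of these data known. The text names Elovl3, the 10 genes nearest to it by Pearson r and the 5 nearest by distance, all listed elongase, elongation and desaturase genes, up to 4 genes with the largest differences in each other list, and listed genes within 500000 bases. Alternatives were pseudocounts of 1 and 0.01, a minimum mean of 1 TPM, rescaled livers, no limit on the fold change, a replicate block, each liver left out and limma-voom on recovered reads. Fgf18, the livers given AAV-FGF18 and public RNA-seq were not analysed here. The study states that its replicates are biologically independent.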

Additional observations from a re-analysis of the deposited data

How the results depend on the processing

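The log2 difference of Elovl3 was 4.96, and it stayed between 4.73 and 5.22 when each liver was left out in turn, at 4.77 with a pseudocount of 1, at 4.98 with a pseudocount of 0.01 and at 4.99 with limma-voom on recovered reads. It moved to 3.93 on rescaled livers, an alternative that lowers the median of all genes by 0.88. The number of called genes, 2294, became 832 with a pseudocount of 1, which shrinks differences at low levels, 1309 among 1424 genes averaging 1 TPM or more, and 1396 on rescaled livers. Direction was checked for 76 genes, those of the plotted lists, those most like Elovl3 and the listed neighbours. None of them changed direction under any alternative that fitted it. Markers of other liver cells were not among the 76, and the macrophage marker Adgre1 went from 0.82 to -0.03 on rescaled livers.

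In the elongase family, counted here without Elovl3, Elovl7 was called, and the count of 1 became 0 with a pseudocount of 1 and on rescaled livers, and ranged from 0 to 1 with a liver left out. NR1D1-repressed clock genes went from 2 calls to 1 with a pseudocount of 1 and to 1 on rescaled livers, and ranged from 1 to 2 with a liver left out. Fatty acid synthesis ranged from 2 to 4 calls with a liver left out. Male-biased genes went from 5 calls to 3 with limma-voom on recovered reads. Cyp2d9 and Gstp1 did not give whole reads in all livers and were left out of that alternative. The remaining 3 called genes kept their calls, so the lower count reflects missing genes. Fatty acid oxidation genes likewise went from 11 calls to 8, since Cpt1a, Ehhadh and Abcd2 were left out for the same reason. Female-biased genes went from 2 calls to 1 with a pseudocount of 1, and ranged from 1 (without Fgf18△HSC liver 3) to 3 (without Fgf18 f/f liver 3, where Prom1 was called as well) with a liver left out. The brown adipocyte marker Ebf2 went from 0 calls to 1 with a pseudocount of 0.01, with limma-voom and with no limit on the fold change. The white adipocyte marker Fabp4 went from 1 call to 0 on rescaled livers. Of the 10 genes nearest to Elovl3 by r, 1 was named again on rescaled livers and 4 to 6 with a liver left out. Apart from the genes left out of limma-voom, the cause of these changes was not tested.

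Replicate numbers 1 to 3 are shared by the groups, but livers of the same number did not deviate together (correlations of 0.0574, 0.00597 and 0.0307), so the numbers do not pair the livers. With a replicate block, Elovl3 stayed at 4.96, 2300 genes were called and none of the 76 genes checked changed its call.

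Depth limits Elovl3 little in Fgf18△HSC livers and more in Fgf18 f/f livers, where 153 to 247 reads carry it, and it limits genes with at most 3 reads per liver there, such as Pitx3 and AC158355.1, more.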
